A study of Mus musculus and Homo sapiens with 4 samples.

Results

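The glucocorticoid receptor gene and 9 genes of its response were read on 4 Affymetrix 3' expression arrays. The genes were taken by name, as every probe set annotated with NR3C1, FKBP5, TSC22D3, PER1, KLF9, ZBTB16, SGK1, GLUL, ERRFI1 or HSD11B1. This gave 30 of 45037 non-control probe sets for all 10 genes on the mouse array and 24 of 54613 for 9 genes on the human array. All 4 human PER1 probe sets carry a second gene symbol, so no human PER1 value was taken.

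The groups were LM8, a mouse osteosarcoma line, and A375M, a human melanoma line, each stably infected with a control pSIREN-RetroQ retrovirus or with one carrying a hairpin against Merm1/Wbscr22 of its species, with 1 array per group. The target is now named Bud23 and encodes a methyltransferase of 18S ribosomal RNA. Cells were grown in 10% fetal bovine serum, and the labels name no glucocorticoid among the treatments. The labels do not give the hormone content of the serum. The labels do not say whether the infected lines are clones or pools. With 1 array per group there was no replicate, no test and no p-value.

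The glucocorticoid receptor is a nuclear receptor that chaperones of the HSP90 family hold in the cytoplasm until cortisol or corticosterone binds it. It then enters the nucleus, binds response elements made of inverted half-sites and raises transcription of genes such as FKBP5 and TSC22D3, while it lowers many inflammatory genes through AP-1 and NF-kB. In bone, glucocorticoids restrain osteoblasts, and in many tissues they reset clock and metabolic genes. Merm1 has been described elsewhere as a factor that supports the receptor's activity, which is the question these genes bear on.

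Among the members, the exact letters of a palindromic receptor element were found upstream of mouse Sgk1 alone. The stretch is shown because Sgk1 read higher on the knock-down arrays of both lines, on 1 probe set each and by less than 1.5-fold. Only mouse windows were searched, and a link between these letters and the readings was not tested. RefSeq start-site windows (GRCm38.p6), reaching from 250 bases before a start to 50 after it, matched 8 members with 17 windows, and none was given for Nr3c1 and Zbtb16. They were searched for the palindromic element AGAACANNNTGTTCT, where N is any base and which reads the same on both strands. It was found in 1 of the 17 windows and in 3 of all 32851 windows (0.00913%). The Sgk1 match starts 189 bases before 1 of the 6 annotated Sgk1 starts. Its surroundings at chr10:21993641-21993775 on the plus strand are given with the element in capitals.
Sgk1, palindromic element: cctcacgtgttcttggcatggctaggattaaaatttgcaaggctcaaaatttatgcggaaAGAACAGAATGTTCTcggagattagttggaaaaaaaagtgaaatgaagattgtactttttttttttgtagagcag
The looser core GNACANNNTGTNC, which the palindrome contains, was found in that same window alone among the members and in 0.475% of all windows. The half-site AGAACA on either strand, also part of the palindrome, was in 4 of the 17 windows against 18.97% of all windows. Apart from the palindrome window these were 2 other Sgk1 windows and 1 of the 3 Tsc22d3 windows. They are shown with the half-site in capitals, for comparison with the paired arrangement in the first sequence. The Sgk1 stretches lie on the plus strand at chr10:21881934-21882054 and chr10:21992150-21992222, and the Tsc22d3 stretch on the minus strand at chrX:140600642-140600767.
Sgk1, most upstream start: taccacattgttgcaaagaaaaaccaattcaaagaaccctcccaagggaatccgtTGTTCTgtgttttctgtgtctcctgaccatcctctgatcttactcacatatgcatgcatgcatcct
Sgk1, half-site close to a start: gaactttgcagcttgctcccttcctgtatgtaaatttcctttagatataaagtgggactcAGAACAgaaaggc
Tsc22d3: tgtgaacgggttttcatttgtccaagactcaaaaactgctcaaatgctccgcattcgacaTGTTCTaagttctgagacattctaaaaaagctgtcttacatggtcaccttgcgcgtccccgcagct
A match of letters is a description and not a binding site. Windows without a match (Fkbp5, Per1, Klf9, Glul, Errfi1 and Hsd11b1) hold none of these letters in these 300 bases. The other windows with the palindrome belonged to Acnat2 and Gm35041. Acnat2 lay below the array median in LM8, and Gm35041 was not named on the array.

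The values are log2 RMA expression values, and each difference is the knock-down array minus the control array of the same line. Probe sets differ in brightness for technical reasons, so levels were not compared between probe sets, genes or lines. A gene with several probe sets is represented by its brightest one, and it was kept where that probe set exceeded the array median (5.29 in LM8 control, 4.64 in A375M control) on at least 1 array. As a technical gauge, the SD between differences of probe sets of the same gene was 0.12 at the median of 5313 genes in LM8 and 0.071 at that of 6265 genes in A375M. This gauge leaves out the spread between cultures. In A375M it also takes in probe sets with equal values on both arrays, which can lower it. There 30.8% of kept genes had equal values on the probe set that represents them.

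The knock-down itself was visible on both platforms. Bud23 read 10.61 in the LM8 control and 8.48 in the LM8 knock-down array, and its bright human probe set read 10.70 and 8.38. The 3' to 5' differences of the Gapdh and actin control probe sets moved by -0.0094 to 0.085 between the arrays of a line. Probe sets for the hybridisation spike-ins had median differences of -0.00045 in LM8 and 0.056 in A375M. For the labelling spike-ins these were 0.14 in LM8 and 0.017 in A375M. The LM8 labelling value exceeds the LM8 gauge and is similar in size to the median member difference there, 0.12. Its part in the LM8 differences was not tested. Of 13 listed osteoblast markers 10 had a value in LM8, and Runx2, Bglap and Spp1 had none. All 10 exceeded the array median on at least 1 LM8 array, among them Sp7 (11.11 in control) and Alpl (11.63). Mepe (5.35) and Dmp1 (6.56) lay nearer the median of the control array. In A375M, 9 of 11 named melanocyte markers exceeded the median on at least 1 array, among them the transcription factor genes SOX10 (11.62 in control) and MITF (10.61). S100B (10.68) and EDNRB (11.79) were also far above it. MLANA (4.84), SLC45A2 (5.25), PMEL (5.42), TYRP1 (6.01) and TYR (6.04) lay nearer the median of the control array. Of the named markers of other cell types (leukocyte, endothelial, epithelial, adipocyte, and fibroblast and smooth muscle, with melanocyte in LM8 and osteoblast in A375M), 25% to 77.8% per list were above the median in LM8 and 50% to 77.8% in A375M. Their list medians ran from -0.18 to 0.17 in LM8 and from 0 to 0.14 in A375M. A pair of these markers passed 1.5-fold, both in LM8, namely the collagen gene Col3a1 (6.59 and 8.96, 5.16-fold higher) and S100b (8.28 and 9.01, 1.66-fold higher). Their part in the LM8 differences of the receptor's target genes was not tested. For the lines' own markers the median differences were 0.00088 in LM8 and 0.14 in A375M.

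No member differed by 1.5-fold in either line. In LM8, 8 of the 10 genes were kept, 6 read higher and 2 lower with the hairpin, and 0 passed 1.5-fold in either direction. Over all 11646 kept LM8 genes 1.16% were at least 1.5-fold higher and 1.31% at least 1.5-fold lower. In A375M, 7 of 9 named genes were kept, 3 read higher, 3 lower and 1 the same, and again 0 passed 1.5-fold, against 0.378% higher and 0.37% lower among 13244 kept genes. The largest member differences were 1.31-fold for Glul in LM8 and 1.33-fold for ERRFI1 in A375M. With backgrounds this low, a count of 0 among 8 or 7 genes does not set the members apart from other genes. The median difference of the members was 0.12 in LM8, where all kept genes had a median of 0.015, and 0 in A375M, the same as all kept genes. The LM8 median rests on the choice of 1 probe set per gene. With a gene's probe sets averaged it was -0.0062, against 0.0063 for all kept genes.

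**Figure D1:**
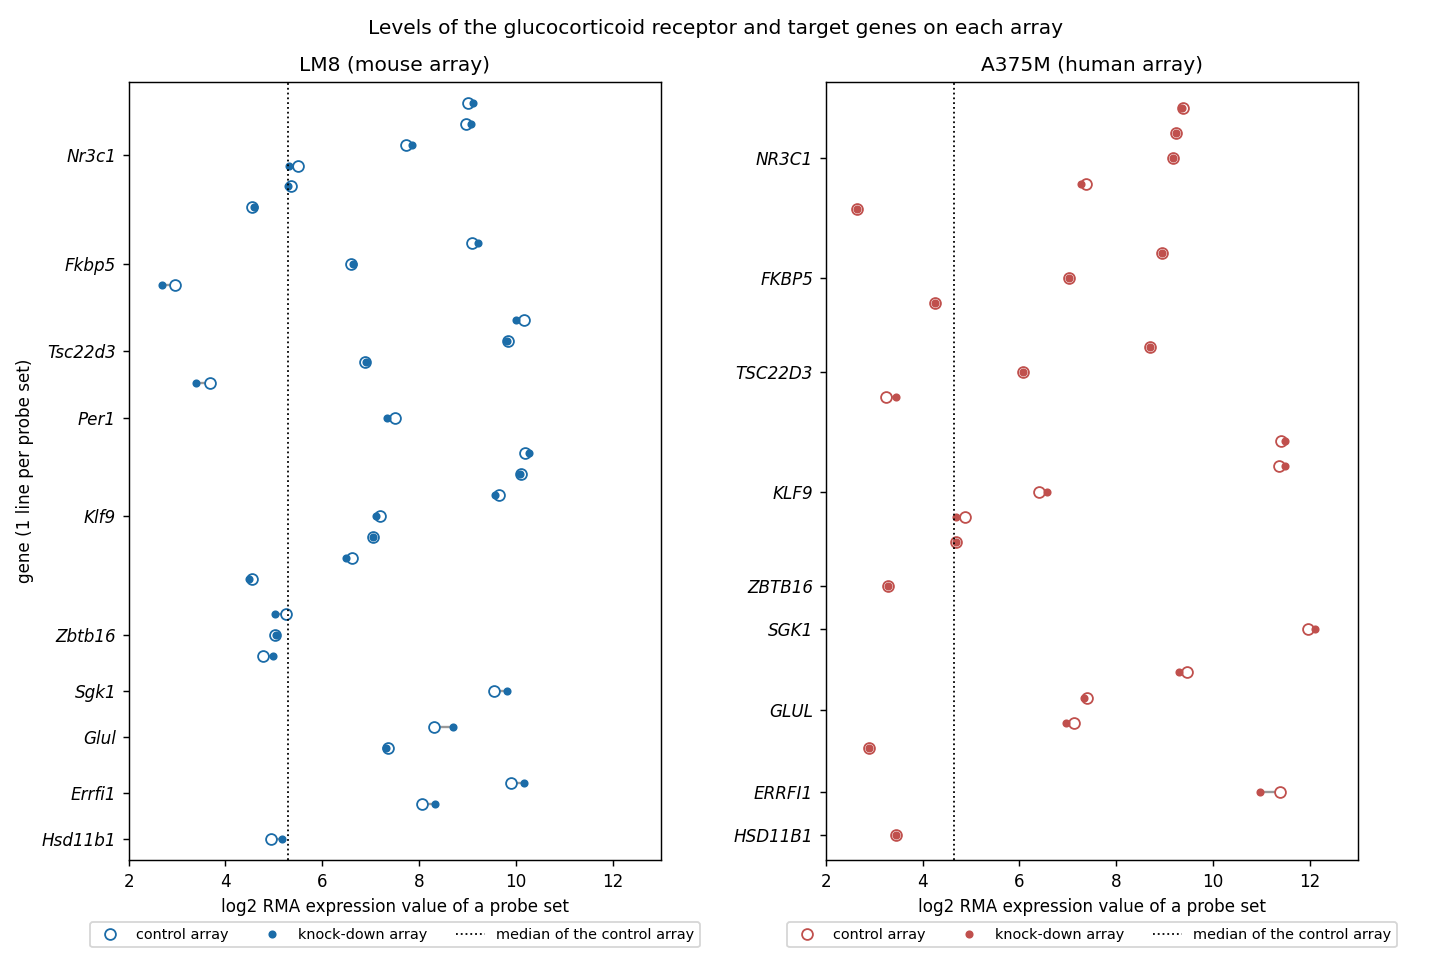
Log2 RMA level of every probe set of the receptor and its target genes, in LM8 (left) and A375M (right), with open circles for the control array, filled circles for the knock-down array and a dotted line at the median of the control array. Control and knock-down circles of most probe sets overlap, and the widest gaps are those of Glul (8.31 and 8.69) and ERRFI1 (11.38 and 10.97).

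The receptor transcript itself differed little. Nr3c1, represented by probe set 1460303_at, read 9.00 in the LM8 control and 9.11 in the LM8 knock-down array, a difference of 0.11. The probe sets 1421867_at (8.97 and 9.07) and 1457635_s_at (7.74 and 7.84) were higher by nearly the same amount. The remaining kept probe sets, 1453860_s_at and 1431378_at, lay close to the array median and differed by -0.05 and -0.18, and 1421866_at, below the median, by 0.04. The brighter mouse probe sets therefore all read slightly higher, by less than the gauge of 0.12, and 50.6% of kept genes differed by at least as much. In A375M, NR3C1 probe set 201865_x_at read 9.39 and 9.36, a difference of -0.02. Probe sets 216321_s_at (9.24) and 211671_s_at (9.17) had the same value on both arrays, and 201866_s_at read 7.37 and 7.27. The receptor was thus well above the array median on the arrays of both lines, and the widest difference of any of its probe sets was -0.18.

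Among direct targets, FKBP5 encodes a co-chaperone of HSP90 that lowers the receptor's affinity for hormone and serves as a standard marker of receptor activity. Fkbp5 read 9.09 in the LM8 control and 9.22 in the knock-down array (difference 0.13), and its second kept probe set 6.59 and 6.63. Probe set 1447736_at lay far below the median and differed by -0.27. In A375M all 3 FKBP5 probe sets, at 8.95, 7.02 and 4.26, had identical values on both arrays. FKBP5 thus showed a difference in LM8 near the gauge and none in A375M at the resolution of the deposited values.

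TSC22D3 encodes GILZ, a leucine zipper protein that carries part of the anti-inflammatory action of glucocorticoids. Tsc22d3 read 10.18 in the LM8 control and 10.00 with the hairpin, a difference of -0.18, and 13.9% of kept genes were at least as low. Its other kept probe sets differed by -0.03 and 0.02, so the probe sets of this gene did not share a direction. Probe set 1444365_at, below the median at 3.69 and 3.39, differed by -0.30. TSC22D3 in A375M read 8.69 and 8.71, with 207001_x_at identical at 6.08, and the dim 235364_at read 3.25 and 3.46.

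The transcription factors of the response went no further. Per1, a repressor in the circadian clock that glucocorticoids induce directly, has 1 mouse probe set, which read 7.50 in the LM8 control and 7.34 with the hairpin, a difference of -0.16. Klf9, a zinc finger factor induced by glucocorticoid and thyroid hormones, had 6 kept mouse probe sets whose differences ran from -0.11 to 0.08, 4 of them lower and 2 higher. The one that stands for the gene read 10.19 and 10.28. The mean over all its mouse probe sets was -0.04, so the direction of Klf9 in LM8 turned with the probe set. In A375M, KLF9 probe set 203542_s_at read 11.41 and 11.49, and 203543_s_at 11.36 and 11.49. Of its 5 probe sets 3 were higher, 1 lower and 1 identical, from -0.18 to 0.15. The SD between kept KLF9 probe sets, 0.072 in LM8 and 0.14 in A375M, was close to or above the 0.08 difference of the representative in both lines.

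ZBTB16, also called PLZF, is strongly induced by glucocorticoids where the receptor is active, and it was dim on all arrays. The 3 mouse probe sets lay between 4.78 and 5.24 in the control and between 4.98 and 5.04 in the knock-down array, below the array medians, and differed by -0.22 to 0.20. The human probe set read 3.28 on both arrays. HSD11B1, the reductase that regenerates cortisol from cortisone inside cells, was dim as well, at 4.93 and 5.17 in LM8 and at 3.46 on both A375M arrays. Neither gene was kept, and differences at these levels carry little signal over background.

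Sgk1, a serum- and glucocorticoid-induced kinase that acts on ion channels and on FOXO factors, read 9.55 in the LM8 control and 9.81 in the knock-down array. The difference of 0.27 (1.20-fold) was matched or exceeded upward by 8.55% of kept genes. SGK1 in A375M read 11.95 and 12.11, a difference of 0.16 (1.11-fold), with 7.43% of kept genes at least as high. Both values exceed the gauge of their line, which equal values can lower in A375M. Each platform has 1 SGK1 probe set, so no second probe set checks them. Of the 7 genes kept in both lines, SGK1 and KLF9 were the 2 whose representative probe set read higher in both, and for Klf9 in LM8 4 of 6 kept probe sets read lower. NR3C1, TSC22D3, GLUL and ERRFI1 had opposite signs, and FKBP5 was identical in A375M. The A375M differences of NR3C1 (-0.02) and TSC22D3 (0.01) were smaller than the gauge of 0.071, so their sign there carries little. The share of opposite signs among all genes kept in both lines was not computed, so these counts do not set the members apart.

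The widest differences of the kept members were those of ERRFI1 in A375M and Glul in LM8. ERRFI1 encodes MIG6, an inhibitor of the EGF receptor that glucocorticoids induce. Errfi1 read 9.89 in the LM8 control and 10.16 with the hairpin, a difference of 0.26, and its second probe set 8.06 and 8.32, again 0.26. ERRFI1 in A375M read 11.38 and 10.97, a difference of -0.41, and 1.38% of kept genes were at least as low. The mouse gene was therefore higher on both of its probe sets and the human gene lower on its single one, and the difference between lines was not tested.

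Glul encodes glutamine synthetase, a classic glucocorticoid-induced enzyme of muscle, glia and retina. Its brighter mouse probe set 1426236_a_at read 8.31 in the LM8 control and 8.69 with the hairpin, a difference of 0.39, and 3.71% of kept genes were at least as high. The other mouse probe set, 1426235_a_at, read 7.36 and 7.31, so the mean over both was 0.17 with an SD of 0.31. In A375M the 3 kept GLUL probe sets were all lower, by -0.17, -0.16 and -0.06, with the first reading 9.45 and 9.29. The higher LM8 reading of Glul thus appeared on 1 of 2 probe sets, whereas the smaller A375M shift was shared by every kept probe set.

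**Figure D2:**
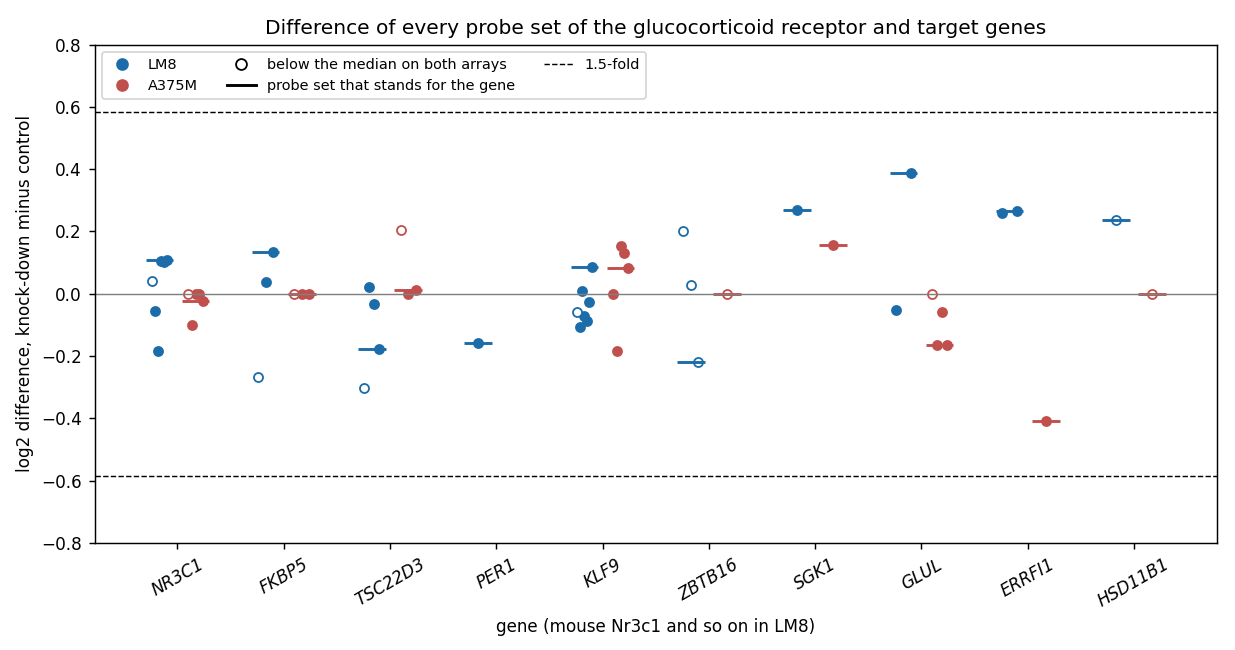
Log2 difference, knock-down minus control, of every probe set of each gene in LM8 (blue) and A375M (red), with open symbols for probe sets below the median on both arrays, short bars on the probe set that stands for the gene and dashed lines at 1.5-fold. All points lie between -0.41 and 0.39, inside the dashed lines, and only SGK1 and KLF9 have bars above 0 in both lines, with 4 of 6 kept Klf9 probe sets in LM8 below 0.

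**Figure D3:**
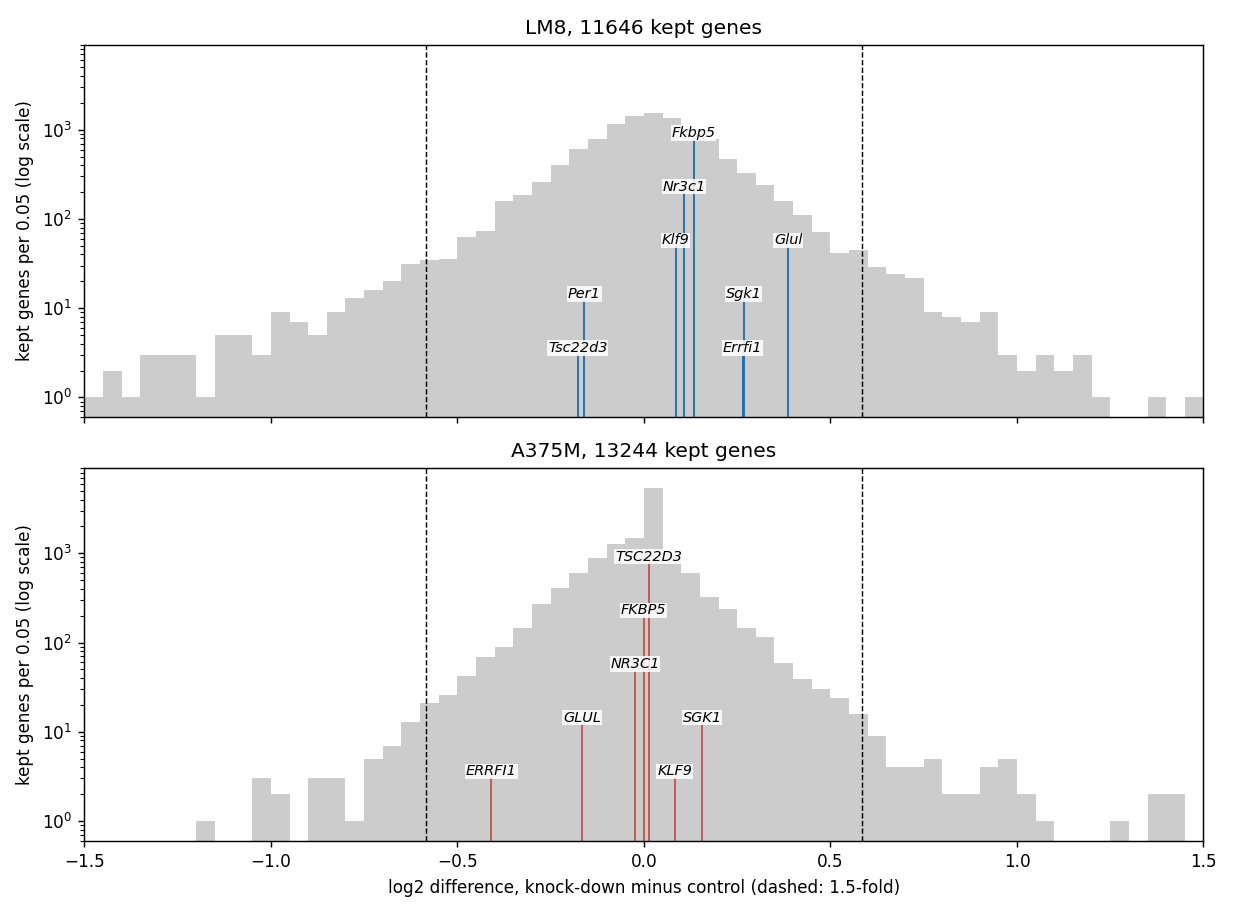
Number of kept genes per 0.05 of log2 difference, on a logarithmic axis drawn from -1.5 to 1.5, in LM8 (top) and A375M (bottom), with a vertical line for each kept receptor or target gene and dashed lines at 1.5-fold. All members lie inside the dashed lines, Glul at 0.39 and ERRFI1 at -0.41 lie in the tails, where 3.71% of kept LM8 genes were at least as high and 1.38% of kept A375M genes at least as low, and the tall A375M bar at 0 holds the genes with identical values.

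Identical values limit what the human arrays can show for these genes. In A375M 11 of 24 member probe sets (45.8%) had exactly equal values on both arrays, against 45.4% of all non-control probe sets, while in LM8 0 of 30 did. The ZBTB16 pair of values, 3.28 on both arrays, was shared by 483 probe sets and the HSD11B1 pair by 463. The brighter FKBP5 pairs were shared by 2 (8.95) and 12 (7.02) probe sets and the NR3C1 pairs by 3 (9.17) and 4 (9.24), counting the gene's own. The SGK1 and ERRFI1 pairs and those of the 3 kept GLUL probe sets occurred once each. A pair that occurs once can still hold a recurring value. The knock-down value of GLUL probe set 217202_s_at was shared by 39 probe sets and that of 200648_s_at by 18. For KLF9 probe set 203541_s_at, which differed by -0.18, the knock-down value was shared by 335. No source used here gives the step that made values recur, so an equal pair does not show that a transcript was at the same level in both cultures.

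The machinery around the receptor was described through lists of genes. Among chaperones and import factors of the receptor, 0 of 19 kept genes passed 1.5-fold in LM8 or in A375M, with medians of -0.03 and -0.0042. The largest LM8 differences were those of Hspa1a (-0.42), an inducible HSP70, St13 (-0.28), the HSP70-interacting protein HIP, and Kpnb1 (0.25), the importin beta of nuclear import. The kept probe sets of St13 differed in sign. In A375M they were BAG1 (0.21), an HSP70 co-chaperone, PPID (0.20), a cyclophilin found in receptor complexes, and KPNA1 (-0.19), an importin alpha.

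By the 1 probe set that represents each gene, coregulators of the receptor leaned upward in LM8. There 18 of 22 kept genes read higher against 53.8% of all kept genes, with a median of 0.073 and 0 past 1.5-fold. Several genes counted higher had kept probe sets of both signs, among them Med1 (-0.48 to 0.05) and Med14 (-0.14 to 0.32). Some counted lower did too, such as Ncoa2 (-0.42 to 0.03). Trim24 (0.37), a bromodomain cofactor of nuclear receptors, Ncoa1 (0.35), the steroid receptor coactivator SRC-1, and Cbx3 (0.30), a heterochromatin protein that binds methylated histones, had the largest differences. In A375M 3 of 22 read higher, 11 lower and 8 the same, against 40.3% of all kept genes lower and 30.8% the same, with PPARGC1A (0.37), a metabolic coactivator, EP300 (-0.29), a histone acetyltransferase, and KMT2D (-0.19), a histone methyltransferase with kept probe sets of both signs. The upward lean of the representing probe sets in LM8 was therefore not seen in A375M, and this difference was not tested.

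Steroid receptors and steroid-converting enzymes had 7 of 14 named genes kept in LM8 and 11 of 19 in A375M, and 0 passed 1.5-fold in either line. H6pd, which supplies NADPH to HSD11B1, differed by 0.15 in LM8, Srd5a3, a polyprenol reductase, by 0.19, and Star, a cholesterol carrier of steroid-making cells, by -0.33 at 5.79 in the control, close to the median. In A375M, SRD5A1, a steroid reductase, read 7.16 and 6.67 (-0.49, and -0.56 to -0.32 over 3 probe sets). AKR1C1, a ketosteroid reductase, read 9.71 and 9.25 (-0.47), and HSD17B4 9.23 and 9.03 (-0.19).

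Further genes that glucocorticoids can induce went in both directions in both lines. In LM8 21 of 38 kept genes read higher and 17 lower (median 0.049), against 53.8% and 46.0% of all kept genes. By the probe set that represents each gene, 0 were at least 1.5-fold higher and 1 lower, Tnfaip3 (-0.89), an inhibitor of NF-kB. Of all kept genes 1.16% and 1.31% were. Sesn1 (0.54), a stress-induced sestrin, and Rgs2 (0.51), a G-protein regulator with all 3 kept probe sets higher, had the next largest differences. Other kept probe sets passed 1.5-fold upward for Rgs2 (0.87), Cited2 (0.72) and Foxo3 (0.59), and downward for Tiparp (-0.67) and Slc38a2 (-0.67). In A375M 15 of 43 read higher, 23 lower and 5 the same (median -0.03), against 29.0%, 40.3% and 30.8% of all kept genes, with 0 past 1.5-fold. CDC42EP3 (-0.47), a Cdc42 effector, TNFAIP3 (-0.45) and LCN2 (-0.41), an iron-siderophore binding lipocalin, led that list.

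Genes the receptor can repress were often dim in LM8, where 11 of 26 named genes were kept. There 7 read higher and 4 lower, against 53.8% and 46.0% of all kept genes. The collagenase gene Mmp13 at 2.08 and the AP-1 gene Fos at -0.93 passed 1.5-fold, and Tnf (0.31) lay near the median. Of all kept LM8 genes 1.16% passed 1.5-fold upward and 1.31% downward. In A375M 15 of 22 kept genes read lower, 5 higher and 2 the same, against 40.3% of all kept genes lower, with a median of -0.17. The 4 past 1.5-fold, a change that 0.37% of all kept genes showed downward, were all lower, namely the chemokine genes CCL2 (7.22 and 6.03) and CXCL2 (9.26 and 8.56), the cytokine gene IL1A (7.80 and 6.92) and the cyclooxygenase gene PTGS2 (7.61 and 7.01). These inflammatory genes are shared with other pathways, and they were known to be low in these arrays when the list was made, so the count is no independent evidence. On the same A375M arrays 3 kept members read higher, 3 lower and 1, FKBP5, the same. A link between the members and the repressed list was not tested.

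Of the clock genes other than PER1, 11 of 17 kept genes read lower in LM8 (median -0.09), against 46.0% of all kept genes. In A375M 10 of 16 read lower (median -0.04) and 4 the same, against 40.3% and 30.8% of all kept genes. Bhlhe40 (-0.97), a repressor of clock genes that also responds to low oxygen, was the 1 gene past 1.5-fold in LM8. Of all kept LM8 genes 1.31% were at least 1.5-fold lower. Next came Ciart (-0.57), a clock repressor, and Rora (0.57, and 0.04 to 0.65 over 7 probe sets), a nuclear receptor that activates Bmal1. In A375M the largest differences were those of CLOCK (-0.27), PER2 (-0.23) and BMAL1 (-0.22), and 0 passed 1.5-fold.

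Among genes that work with SGK1, ERRFI1 and GLUL, Ndrg2 (-1.51) and Ndrg1 (-0.59, and -0.94 to -0.58 over 5 probe sets), whose products SGK1 phosphorylates, were the 2 of 19 past 1.5-fold in LM8, where 1.31% of all kept genes were at least 1.5-fold lower. Egfr, the receptor that MIG6 inhibits, differed by 0.46 there, with 5 kept probe sets all higher. In A375M 0 of 21 passed by the probe set that represents each gene. The largest differences were those of RICTOR (-0.25), a subunit of the mTORC2 complex that activates SGK1, TGFA (0.23), an EGF receptor ligand, and HBEGF (-0.17), another ligand. Human EGFR read 6.13 on both arrays by its representing probe set, but its 6 kept probe sets ran from -0.60, past 1.5-fold, to 0.23. Sgk1 itself read 0.27 higher in LM8 on its single probe set. Phosphorylation was not measured, and a link between Sgk1 and the levels of these transcripts was not tested.

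**Figure D4:**
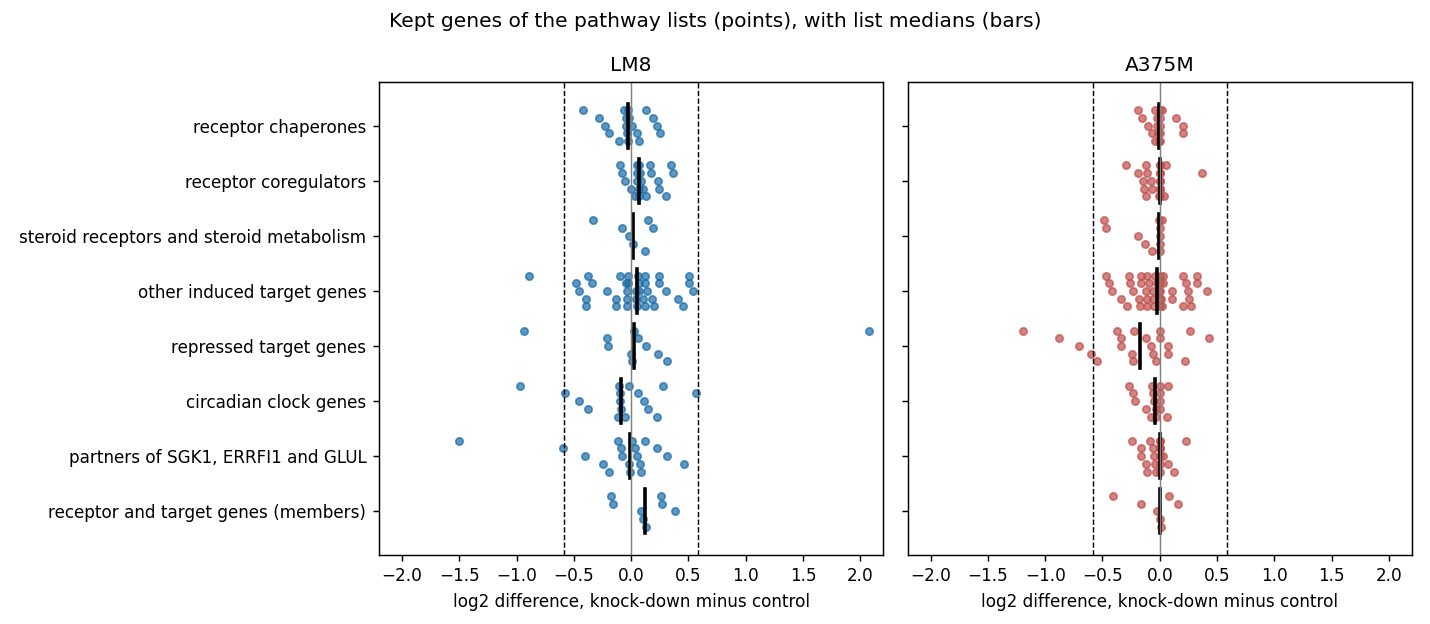
Log2 difference, knock-down minus control, of each kept gene (points) of 7 pathway lists and of the receptor and its targets (bottom row) in LM8 (left) and A375M (right), with black bars at list medians and dashed lines at 1.5-fold. Most medians lie close to 0, the repressed targets have a median of -0.17 in A375M, and the points past the dashed lines belong to 4 lists in LM8 and to the repressed targets in A375M.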

How the data were processed

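Total RNA (8.1 to 15 µg per the labels' protocols) was labelled as biotinylated cRNA and hybridised to 1 array per group. The deposited values were log2 expression values that the authors made with RMA, per the submitters' processing notes. No source used here gives its version. RMA equalises the arrays, so a global shift cannot be seen. Groups were taken from sample titles, and gene names came from the platform annotation, without probe sets that carry several symbols. Differences were counted at 1.5-fold on kept genes, with no test. The counting step was tested on simulated data, with 2-fold shifts put on all probe sets of a gene and no equal values. These shifts were wider than any member difference, so the simulation does not bear on differences of the members' size. The members and lists were chosen with earlier results of these data known. Named genes were all members, pathway list genes past 1.5-fold and, where fewer than 3 passed, the 3 with the largest differences. The 7 marker lists served to check the lines, and their genes past 1.5-fold are named too. Alternatives were a 2-fold threshold, no filter, a 70th percentile filter, median centring, repeated quantile normalization, loess removal (span 0.4), the mean of probe sets, exclusion of _x_at and _s_at probe sets, and 32 added to linear values. Scripts used Python 3.11.15 with pandas and statsmodels. The number of arrays limits the precision.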

Additional observations from a re-analysis of the deposited data

Results flagged for a closer look

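A pair of members, GLUL and ERRFI1, read in opposite directions in the lines by more than the gauge, the spread between probe sets of a gene, which 47.7% of kept genes exceeded in LM8 and 41.1% in A375M. GLUL differed by 0.39 in LM8 and by -0.17 in A375M, and ERRFI1 by 0.26 in LM8 and by -0.41 in A375M. The second Glul probe set in LM8 read lower, as in A375M, and the mean over both was 0.17 with an SD of 0.31. These are single array pairs in lines of different species and platforms, and the difference between lines was not tested. The share of all genes that read in opposite directions in this way was not computed. Probe sets with equal values on both arrays can lower the A375M gauge.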

How the results depend on the processing

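The count of members at least 1.5-fold higher or lower was 0 in both lines under all 9 alternatives. The median difference of the LM8 members moved from 0.12 to -0.0062 when probe sets were averaged, where Fkbp5, whose dim probe set then counts, was at -0.03, Klf9 at -0.04 and Glul at 0.17. Of 64 recomputed LM8 member differences 61 moved by less than the gauge, as did 52 of 52 in A375M. Many of these could not move, since a change of filter leaves a member's difference as it was. In LM8, leaving out _x_at and _s_at probe sets changed no member difference either. The 3 that moved further all came from averaging probe sets (Fkbp5, Klf9 and Glul). Averaging cannot move a gene with 1 probe set, such as SGK1 in both lines and ERRFI1 in A375M. NR3C1 and TSC22D3 in A375M, both near 0, changed sign under 1 alternative each. SGK1 stayed between 0.25 and 0.28 in LM8 and between 0.13 and 0.17 in A375M, and ERRFI1 between 0.24 and 0.28 and between -0.44 and -0.37. Without _x_at and _s_at probe sets 3 human members were kept (FKBP5, SGK1 and ERRFI1). Counts of all kept genes ran from 18 to 212 higher and 37 to 205 lower in LM8 (135 and 153 as reported), and from 11 to 72 and 6 to 60 in A375M (50 and 49). No paired analysis was possible because each group holds 1 array. Values near the array median are limited by signal over background.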
